A study of Mus musculus with 8 samples.

Results

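Translation initiation factor genes were followed across 8 RNA libraries of mouse embryonic stem cells. The group held every gene whose mouse symbol begins with Eif1 to Eif6, apart from the helicase genes Eif4a1, Eif4a2 and Eif4a3, the gene Eif2s3y and 5 pseudogenes with -ps in the symbol. Of 60 matching symbols, 51 were members, among 37310 gene rows. The rule reads gene symbols and no expression value. Of the 51, 49 had enough reads to be tested. Eif4e1b, a gene for a relative of the cap-binding protein, stood at 0 to 0.480 CPM (reads of a gene scaled to a common total of gene reads) and was not tested. Eif2c5, listed as a long non-coding RNA despite its symbol, had no count in any library.

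Initiation factors bring the ribosome to the start codon of an mRNA. eIF4F, made of the cap-binding protein eIF4E, the scaffold eIF4G and the helicase eIF4A, holds the capped end of the mRNA. The small ribosomal subunit with eIF1, eIF1A, eIF3 and the eIF2 complex that carries initiator tRNA scans to the start codon. eIF5 and eIF5B then let the large subunit join. Cells set the rate of initiation mainly through phosphorylation of the alpha subunit of eIF2 by stress-sensing kinases, and through mTOR, which inactivates the eIF4E-binding proteins. Embryonic stem cells are known to keep a low rate of protein synthesis compared with their differentiating progeny.

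The study knocked down eIF4A3, the helicase at the core of the exon junction complex, which marks spliced mRNA, and expressed Ccnb1, the gene of cyclin B1, in knocked-down cells. Poly-A RNA was sequenced from feeder-free cells that had been transfected, infected with lentivirus, selected with puromycin at 1 µg/mL for 2.5 days and collected at day 4.5. In the J1 line, of strain 129S4/SvJae, 2 control libraries carried a control knockdown and control expression, 2 libraries, called labelled KD here, carried eIF4A3 knockdown and control expression, and 2, called labelled Ccnb1, carried eIF4A3 knockdown and Ccnb1 expression. In the CCE line, of strain 129/Sv, 2 libraries carried eIF4A3 knockdown. A CCE control was not analysed here. All cells had thus been infected and selected, the controls included. The labels do not say whether libraries of a group came from separate cultures, so p-values measure the spread between these libraries, which may be technical.

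Several facts of the libraries bear on every comparison. Gene counts came to 5740965 and 8340023 (control), 4398141 and 3596615 (labelled KD), 5871830 and 6620504 (labelled Ccnb1) and 23965806 and 25573379 (CCE). Eif4a3, the targeted gene, held 73.5 and 83.7 CPM (control), 75.7 and 37.5 (labelled KD), 47.3 and 53.5 (labelled Ccnb1) and 48.8 and 53.9 (CCE), so replicate 1 of labelled KD was at the control level. Ccnb1 held 135 and 129 CPM (control), 101 and 126 (labelled KD) and 136 and 131 (labelled Ccnb1), so its gene row was no higher in the libraries labelled for its expression. The spread between libraries was 22.0 times Poisson noise in labelled KD, against 3.41 times in control and 1.88 times in labelled Ccnb1. Unaligned reads made up 40.8% and 45.2% of the labelled KD libraries and 15.7% to 15.9% of the other J1 libraries. All 7 markers of embryonic stem cells were detected in every library. They summed to 7044 and 7013 CPM (control), 3394 and 3219 (labelled KD), 6691 in both (labelled Ccnb1) and 3628 and 3895 (CCE). Single markers went both ways between control and labelled Ccnb1. Nanog, Esrrb, Zfp42 and Sox2 were higher in labelled Ccnb1, such as Nanog, at 915 and 953 CPM against 429 and 475 in control. Pou5f1, Utf1 and Dppa5a were lower there, such as Pou5f1, at 1080 and 1051 CPM against 1847 and 1879.5 in control. The 4 markers of primitive endoderm summed to 6.62 and 9.11 CPM (control), 25.01 and 26.1 (labelled KD) and 79.2 and 70.4 (labelled Ccnb1), and the 4 of trophectoderm to 11.6 to 32.9 CPM over the J1 libraries. In CCE the markers of primitive endoderm summed to 72.1 and 96.5 CPM and those of trophectoderm to 104 and 137 CPM. The 7 fibroblast markers summed to 117 to 190.2 CPM over the J1 libraries, with Col3a1 and Dcn at 0 in all of them. They summed to 620 and 425 CPM in CCE, with all 7 detected, against 3 or 4 in each J1 library. Most of the fibroblast sum was Vim, at 155 and 149.5 CPM (control), 96.6 and 156 (labelled KD), 159 and 162 (labelled Ccnb1) and 591 and 401 (CCE). Col1a1, the gene of a main fibroblast collagen, held 1.39 and 1.08 CPM (control), 14.3 and 17.2 (labelled KD), 3.07 and 2.72 (labelled Ccnb1) and 17.5 and 14.3 (CCE), highest of J1 in labelled KD. Thy1 held 13.8 and 7.55 CPM (control), 6.37 and 17.0 (labelled KD) and 17.4 and 17.7 (labelled Ccnb1). Col1a2 and Lum had no count in labelled KD and at most 0.341 and 0.120 CPM in a J1 library. The part of these differences in the results was not tested. In such bulk samples fewer cells of a type and less RNA per cell cannot be told apart.

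Among called members with a mean of at least 5 CPM and a count in every group, the largest log2 fold changes were those of Eif4ebp2 (3.85) and Eif5a2 (3.39) in labelled Ccnb1 against labelled KD. After these 2 genes came Eif4ebp1, at -1.70 in labelled Ccnb1 against control, and Eif3a and Eif3j2, at 1.69 and 1.63 in labelled Ccnb1 against labelled KD. They encode an inhibitor of cap binding, a form of eIF5A, another such inhibitor, and 2 subunits of eIF3. In labelled KD against control, 19 of the 49 tested members fell and 1, Eif4g3, rose (edgeR adjusted p under 0.05 over all 14462 tested genes). The members that fell made up 38.8%, where 17.9% of all tested genes fell, and the 1 that rose made up 2.04%, where 11.0% of all tested genes rose. The median log2 fold change was -0.31 over members and -0.085 over all tested genes. In labelled Ccnb1 against labelled KD, 19 members rose (38.8%, with 22.8% of all tested genes) and 11 fell (22.4%, with 16.0%), with a median of 0.32 against 0.14 over all tested genes. In labelled Ccnb1 against control, 7 members rose (14.3%, with 9.35%) and 13 fell (26.5%, with 10.5%), with a median of -0.23 against 0.071. The 3 comparisons share libraries, so they are not independent of each other.

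The share of all gene counts that fell on the 51 members was 1.14% in both control libraries, 1.02% and 0.894% in labelled KD, 1.08% and 1.07% in labelled Ccnb1, and 1.42% and 1.46% in CCE. Both labelled KD libraries thus lay below the other J1 libraries, and the CCE libraries above all of them. Counts of the CCE files seem to have been made in another way than those of the J1 files. Unaligned reads were 0% there and 15.7% to 45.2% in J1, and reads not unique 9.71% and 10.0% there and 0% in J1. Reads outside genes were 48.5% and 49.5% there against 11.9% to 13.9% in J1, and the reason was not tested. No difference between the lines was tested.

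**Figure D1:**
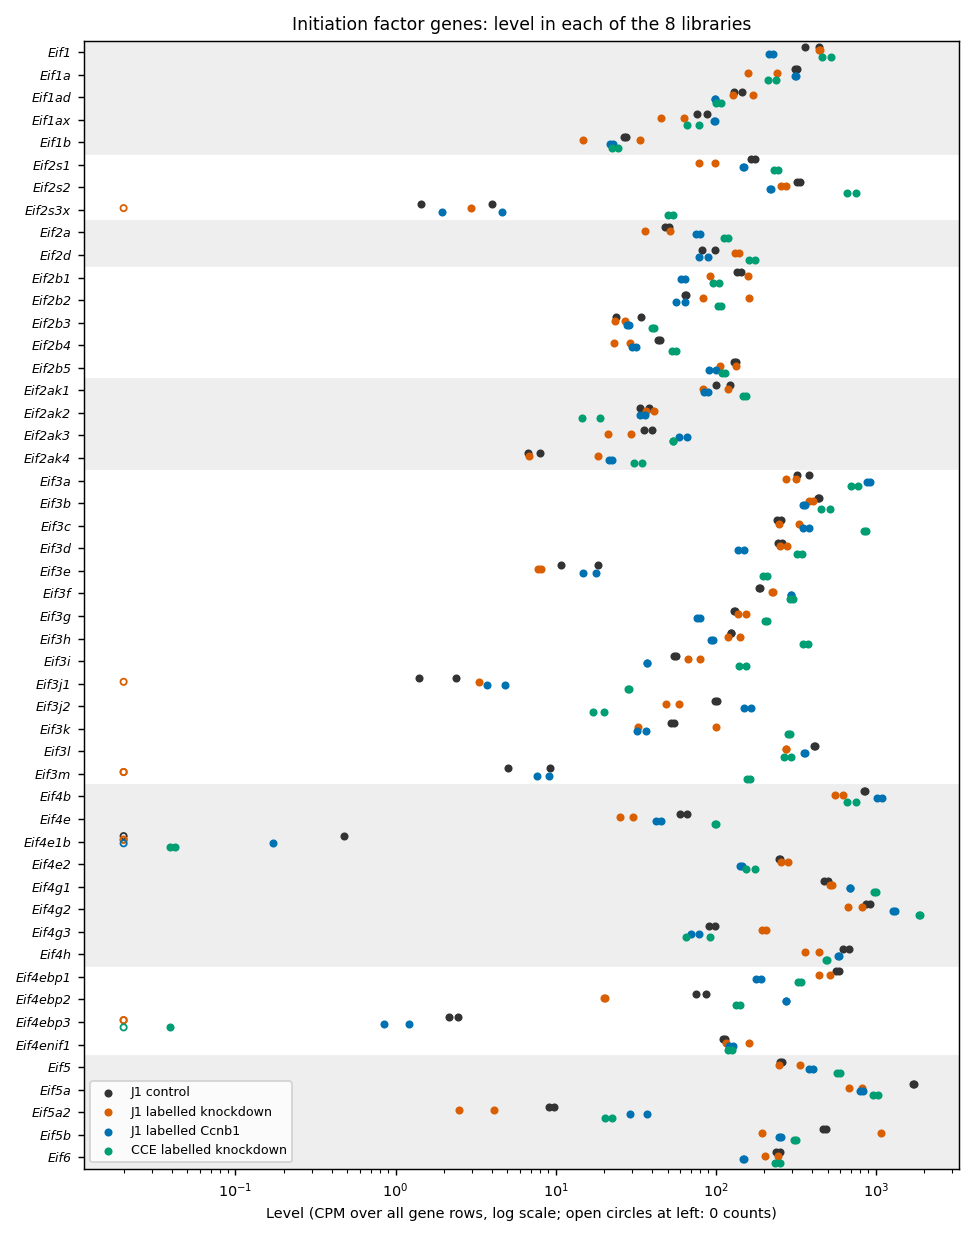
Level of each member with a count, in CPM over all gene rows on a log axis, with 1 point per library and colours for the 4 groups; shading separates the roles, and open circles at the left mark libraries with no count. The widest gap between the J1 groups among members above 5 CPM was at Eif4ebp2, from 20.0 CPM in labelled KD to 277 CPM in labelled Ccnb1, while the 2 labelled KD libraries lay far apart at Eif5b, at 1079.5 and 194 CPM.

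The calls depended on which libraries entered the fit, in which the 3 groups shared 1 estimate of the spread. In labelled KD against control, leaving out control replicate 1 or 2 left 5 of the 20 calls, leaving out labelled Ccnb1 replicate 1 or 2 left 10, and leaving out labelled KD replicate 1 or 2 left all 20 and gave 34 and 35 calls in all. Of the calls of labelled Ccnb1 against labelled KD, 12 were left without labelled Ccnb1 replicate 1 and 13 without its replicate 2, 19 without control replicate 1 or 2, and 29 of the 30 without labelled KD replicate 1 or 2. For labelled Ccnb1 against control, 5 of the 20 calls were left without control replicate 1, 4 without control replicate 2 and 4 without labelled Ccnb1 replicate 1 or 2, and all 20 without labelled KD replicate 1 or 2. A group left with 1 library was assumed to vary like the others. The calls that held under all 14 alternative settings were those of Eif3l, Eif4b, Eif4ebp2 and Eif5a in the first comparison, of Eif1, Eif3a, Eif3d, Eif3j2, Eif3l, Eif4b, Eif4e2, Eif4ebp1, Eif4ebp2, Eif4g1 and Eif4g3 in the next, and of Eif3a, Eif4ebp1, Eif4ebp2 and Eif5a in the last. For each other call of a member, of a member with its copies or of a named pathway gene that leaving out 1 library ended, the highest edgeR adjusted p with 1 library left out stands beside it. For the pathway gene Mcts1 only the loss is stated, and for Ddit4 and Ppp1r15a only levels. A gene is said to have passed or not by edgeR throughout. DESeq2 called 3 further members in the first comparison (Eif2b2 and Eif2d higher, Eif2ak3 lower), 4 in the next (Eif3c higher, Eif2b2, Eif2s2 and Eif3h lower) and 11 in the last (Eif2a, Eif2ak3, Eif2ak4, Eif3c, Eif4b and Eif5 higher, Eif1ad, Eif2b4, Eif3h, Eif4e and Eif4g3 lower).

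**Figure D2:**
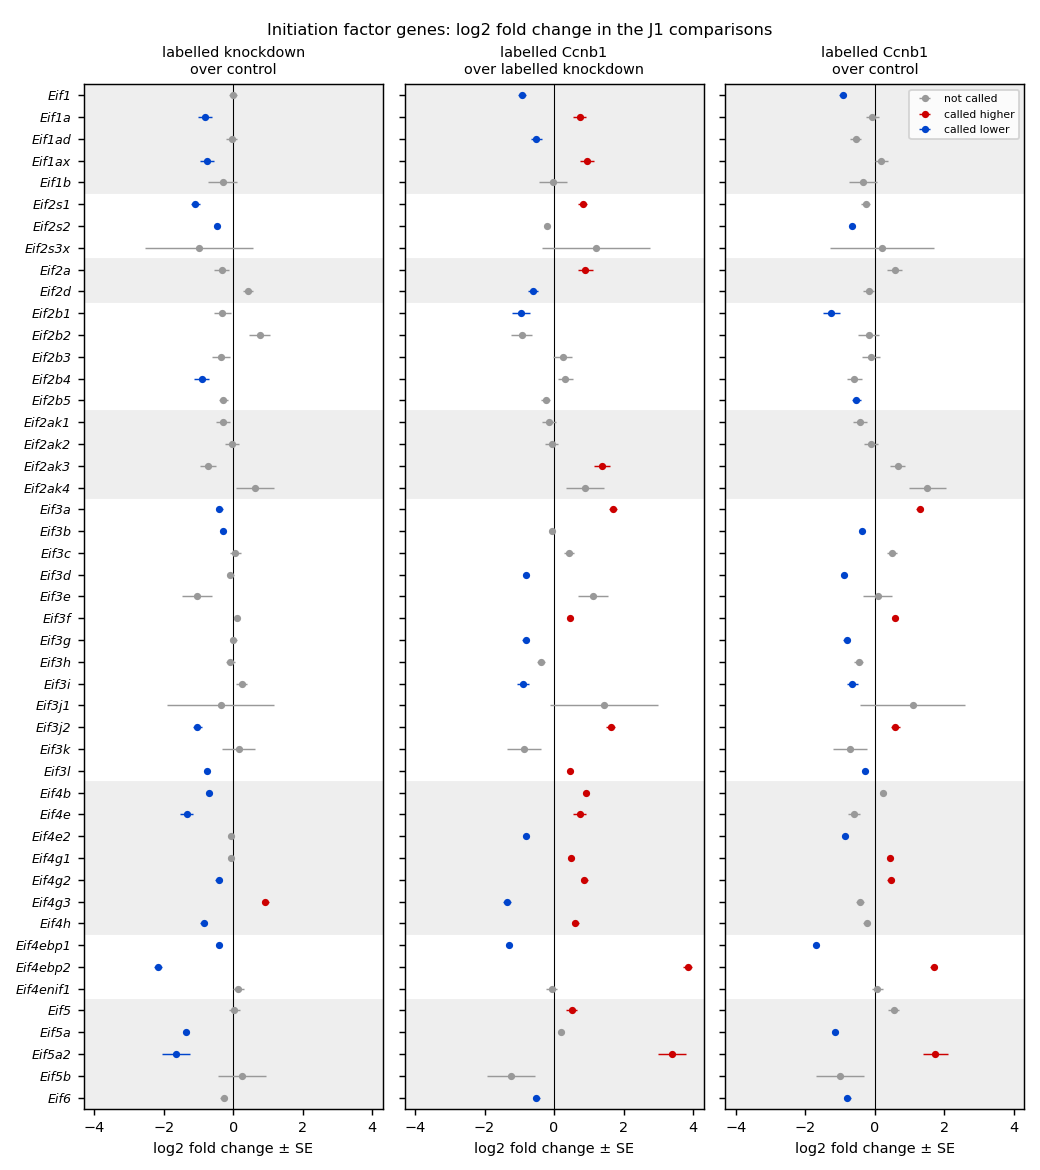
Log2 fold change of the tested members with a count in every group, with its approximate standard error (SE), in the 3 J1 comparisons; red points passed the threshold as higher, blue points as lower, and grey points did not pass. Eif4ebp2 stands farthest from 0 on both sides, at -2.16 in labelled KD over control and 3.85 in labelled Ccnb1 over labelled KD.

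The counts in each role group stand beside the shares of all tested genes. In labelled KD against control 11.0% of these rose and 17.9% fell. In labelled Ccnb1 22.8% rose and 16.0% fell against labelled KD, and 9.35% rose and 10.5% fell against control. The first role group was scanning and start codon selection, with 5 members. Of these, Eif1a and Eif1ax fell in labelled KD against control and 3 did not pass the test. Eif1, whose protein guards against starting at a wrong codon, stood at 360.4 and 444 CPM (control), 442 and 449.6 (labelled KD), 228 and 216 (labelled Ccnb1) and 525 and 463 (CCE). Both labelled Ccnb1 libraries lay below all other libraries, and the control and labelled KD ranges overlapped. Eif1 had a log2 fold change of -0.93 (edgeR adjusted p = 0.00267, SE 0.11) in labelled Ccnb1 against labelled KD and -0.93 (edgeR adjusted p = 0.00492, SE 0.11) against control. Labelled KD differed from control by -0.0068 (edgeR adjusted p = 0.975, SE 0.11) there. The call against control was lost without control replicate 2 or labelled Ccnb1 replicate 1 or 2, with an adjusted p of up to 0.0802 by edgeR.

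Eif1a and Eif1ax both encode eIF1A, which keeps the scanning ribosome open and moving. Eif1a stood at 320.0 and 312 CPM (control), 158 and 242 (labelled KD), 318 and 312 (labelled Ccnb1) and 213 and 237 (CCE). Eif1ax stood at 88.8 and 75.9 CPM (control), 45.5 and 63.4 (labelled KD), 98.8 and 97.9 (labelled Ccnb1) and 66.0 and 79.1 (CCE). For both genes the labelled KD libraries were the lowest of the J1 libraries. Eif1a and Eif1ax had log2 fold changes of -0.81 (edgeR adjusted p = 0.0307, SE 0.20) and -0.75 (edgeR adjusted p = 0.0402, SE 0.20) in labelled KD against control. Against labelled KD, labelled Ccnb1 was higher by 0.73 (edgeR adjusted p = 0.0317, SE 0.20) for Eif1a and 0.93 (edgeR adjusted p = 0.0164, SE 0.20) for Eif1ax on the log2 scale. With 1 control or labelled Ccnb1 library left out, these calls were lost, with an edgeR adjusted p of up to 0.174 and 0.223 in the first comparison and 0.146 and 0.107 in the second. An offset for GC content and transcript length, described further on, ended the higher calls of both and the lower call of Eif1a. Neither gene passed the test in labelled Ccnb1 against control. Eif1ad, a gene with an eIF1A domain, fell in labelled Ccnb1 against labelled KD, with a log2 fold change of -0.51 (edgeR adjusted p = 0.0474, SE 0.16), and this call was lost with 1 library left out (edgeR adjusted p of up to 0.284) and with the offset. Eif1b, a close relative of Eif1, stood at 26.8 and 27.3 CPM (control), 33.9 and 14.7 (labelled KD) and 23.0 and 21.9 (labelled Ccnb1) and passed the test in no comparison.

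Among the 3 subunits of eIF2, which carries initiator tRNA and GTP to the ribosome, Eif2s1 and Eif2s2 fell in labelled KD against control. Eif2s1 encodes the alpha subunit, the one phosphorylated under stress, and stood at 165 and 175 CPM (control), 98.7 and 78.4 (labelled KD), 149.9 and 148 (labelled Ccnb1) and 232 and 247 (CCE). Labelled KD lay below the other groups with no overlap. Eif2s1 had a log2 fold change of -1.10 (edgeR adjusted p = 0.00359, SE 0.13) in labelled KD against control, 0.83 (edgeR adjusted p = 0.00593, SE 0.13) in labelled Ccnb1 against labelled KD and -0.27 (edgeR adjusted p = 0.201, SE 0.13) in labelled Ccnb1 against control. Without control replicate 2 the first of these reached an edgeR adjusted p of 0.0589, and without labelled Ccnb1 replicate 1 or 2 the second reached up to 0.055. With the GC and length offset the second was 0.37 (edgeR adjusted p = 0.0968).

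Eif2s2, the gene of the beta subunit, stood at 339 and 321 CPM (control), 258 and 277 (labelled KD), 221 and 219.6 (labelled Ccnb1) and 664 and 748 (CCE). Control was the highest J1 group and labelled Ccnb1 the lowest, with no overlap. Its log2 fold change was -0.46 (edgeR adjusted p = 0.0102, SE 0.076) in labelled KD and -0.66 (edgeR adjusted p = 0.00431, SE 0.076) in labelled Ccnb1, both against control. Between labelled Ccnb1 and labelled KD it was -0.20 (edgeR adjusted p = 0.0923, SE 0.076). With the offset this last value was -0.80 (edgeR adjusted p = 0.00133), a call, and that of labelled Ccnb1 against control was -1.13 (edgeR adjusted p = 0.00162). Without control replicate 1 or 2 the first reached an edgeR adjusted p of up to 0.0956, and whichever control or labelled Ccnb1 library was left out the other reached up to 0.0842. In CCE Eif2s2 was among the 8 members with the highest level per length.

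Reads of the third subunit gene fell mostly on a copy. Eif2s3x, the gene of the gamma subunit, stood at only 4.01 and 1.44 CPM (control), 2.96 and 0 (labelled KD), 4.60 and 1.96 (labelled Ccnb1) and 50.1 and 54.4 (CCE). Its processed copy Gm2223 matches the Eif2s3x transcript at 100% over 1350 bases, and it held 44.2 and 44.6 CPM (control), 23.2 and 0 (labelled KD), 185 and 207 (labelled Ccnb1) and 0.542 and 1.02 (CCE). The gene row alone passed the test in no comparison. With the copy added, the log2 fold change in labelled Ccnb1 against labelled KD was 3.96 (edgeR adjusted p = 0.0314, SE 1.05). The sum in labelled KD was 26.1 CPM in 1 library and 0 in the other, so that value rests on libraries that disagree, and its edgeR adjusted p reached 0.173 with 1 library left out.

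The windows of 60 bases that follow show how alike gene and copy are. Each spans an exon junction of the gene, with 30 bases on either side, beside the same stretch of the unspliced copy, 5′ to 3′ in the sense of the transcript, from GENCODE M21 on GRCm38. Capitals mark bases that differ, and substitutions count from 1 at the left end, the gene's base first. Eif2s1, on chromosome 12, and Gm12734, on chromosome 11, differ by C7T at the junction of exons 4 and 5. Eif2s3x and Gm2223, both on chromosome X, are identical at the junction of exons 7 and 8.
Eif2s1: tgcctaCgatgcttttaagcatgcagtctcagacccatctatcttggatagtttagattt
Gm12734: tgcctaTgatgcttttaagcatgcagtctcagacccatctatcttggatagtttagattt
Eif2s3x: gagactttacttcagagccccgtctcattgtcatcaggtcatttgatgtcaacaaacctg
Gm2223: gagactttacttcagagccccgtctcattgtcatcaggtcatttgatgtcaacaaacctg

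A read that covers no differing base matches the spliced transcript and the copy alike. On the genome, though, a stretch across a junction is unbroken only at the copy. Over all genes, processed pseudogenes held 9.09% and 9.04% (control), 7.26% and 7.20% (labelled KD), 8.60% and 8.55% (labelled Ccnb1) and 0.230% and 0.220% (CCE) of gene counts. Reads on copies were thus not particular to these members, and why the lines differ was not tested. The share of gene and copy reads of Eif2s1 that fell on the copy was 7.86% and 8.05% (control), 0.230% and 12.7% (labelled KD), 25.3% and 21.9% (labelled Ccnb1) and 0.0180% and 0.0634% (CCE). With Gm12734 added, the log2 fold change of Eif2s1 was -1.13 (edgeR adjusted p = 0.00134, SE 0.096) in labelled KD against control and 1.13 (edgeR adjusted p = 0.000853, SE 0.096) in labelled Ccnb1 against labelled KD. That sum differed between labelled Ccnb1 and control by -0.00019 (edgeR adjusted p = 1, SE 0.092).

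The other factors that deliver tRNA are Eif2a, whose protein can bring initiator tRNA without eIF2, and Eif2d, whose protein acts at re-initiation. Eif2a stood at 51.0 and 48.6 CPM (control), 36.2 and 52.0 (labelled KD), 80.2 and 75.1 (labelled Ccnb1) and 119.8 and 113 (CCE). Eif2d stood at 81.9 and 99.3 CPM (control), 132 and 139 (labelled KD), 78.3 and 90.02 (labelled Ccnb1) and 161 and 177 (CCE). They lay on opposite sides: labelled Ccnb1 was the highest J1 group for Eif2a, and labelled KD the highest for Eif2d. Eif2a rose by 0.90 (edgeR adjusted p = 0.0235, SE 0.22) and Eif2d changed by -0.61 (edgeR adjusted p = 0.0245, SE 0.15) on the log2 scale in labelled Ccnb1 against labelled KD. Without 1 control or labelled Ccnb1 library the edgeR adjusted p reached 0.156 and 0.246. The GC and length offset ended the call of Eif2a, at 0.41 (edgeR adjusted p = 0.184). Neither gene passed by edgeR in the comparisons with control, while DESeq2 called Eif2d higher in labelled KD and Eif2a higher in labelled Ccnb1.

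eIF2B exchanges GDP for GTP on eIF2 and is the step that phosphorylated eIF2 blocks. Of its 5 subunit genes, Eif2b4 fell in labelled KD against control, Eif2b1 fell in both comparisons of labelled Ccnb1, and Eif2b5 fell in labelled Ccnb1 against control. Eif2b1 stood at 136 and 145 CPM (control), 160.3 and 91.8 (labelled KD), 60.3 and 63.9 (labelled Ccnb1) and 95.9 and 105 (CCE). Both labelled Ccnb1 libraries lay below all other libraries of J1. Eif2b1 had a log2 fold change of -0.94 (edgeR adjusted p = 0.0339, SE 0.26) in labelled Ccnb1 against labelled KD and -1.25 (edgeR adjusted p = 0.0237, SE 0.26) against control. Eif2b4 stood at 43.4 and 44.8 CPM (control), 29.1 and 23.1 (labelled KD), 29.8 and 31.9 (labelled Ccnb1) and 53.7 and 56.3 (CCE), with control above both other J1 groups. Its log2 fold change in labelled KD against control was -0.91 (edgeR adjusted p = 0.0284, SE 0.21). Eif2b5, the gene of the catalytic subunit, stood at 129.6 and 133 CPM (control), 133 and 106 (labelled KD), 100.0 and 91.4 (labelled Ccnb1) and 110.2 and 115 (CCE), and its log2 fold change in labelled Ccnb1 against control was -0.53 (edgeR adjusted p = 0.0456, SE 0.14). These 4 calls were lost whichever control or labelled Ccnb1 library was left out, with edgeR adjusted p-values of up to 0.219 and 0.2 for Eif2b1, 0.174 for Eif2b4 and 0.36 for Eif2b5. The offset ended the calls of Eif2b1 against labelled KD, at -0.85 (edgeR adjusted p = 0.0502), and of Eif2b5, at -0.23 (edgeR adjusted p = 0.363), and it made Eif2b4 a call in labelled Ccnb1 against labelled KD, at 0.96 (edgeR adjusted p = 0.018) from 0.32. Eif2b2 stood at 161 and 82.9 CPM in labelled KD, where the libraries disagreed, and ranged from 56.6 to 65.5 CPM over control and labelled Ccnb1. Eif2b3 stood at 23.4 to 34.1 CPM over the J1 libraries, and neither passed by edgeR, while DESeq2 called Eif2b2 higher in labelled KD against control and lower in labelled Ccnb1 against labelled KD.

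The 4 kinases of eIF2 sense haem (Eif2ak1, HRI), double-stranded RNA (Eif2ak2, PKR), stress of the endoplasmic reticulum (Eif2ak3, PERK) and uncharged tRNA (Eif2ak4, GCN2). By edgeR 0 of the 4 were called in labelled KD or in labelled Ccnb1 against control. At an unadjusted p under 0.05, 1 was lower in labelled KD and 2 were higher in labelled Ccnb1, and DESeq2 called the same numbers, Eif2ak3 in the first case and Eif2ak3 and Eif2ak4 in the other. In an edgeR fit of only the control and labelled Ccnb1 libraries, without the spread of labelled KD, Eif2ak1, Eif2ak3 and Eif2ak4 passed. Without labelled KD replicate 1, Eif2ak3 and Eif2ak4 passed in labelled KD against control, and without replicate 2 Eif2ak1 and Eif2ak3 did. Eif2ak3 stood at 35.7 and 39.9 CPM (control), 29.8 and 21.1 (labelled KD), 58.6 and 66.5 (labelled Ccnb1) and 54.4 and 53.8 (CCE). Labelled KD was the lowest group and labelled Ccnb1 the highest, without overlap. Eif2ak3 had a log2 fold change of 1.37 (edgeR adjusted p = 0.00777, SE 0.23) in labelled Ccnb1 against labelled KD, and it was lost without labelled Ccnb1 replicate 1 or 2, with an edgeR adjusted p of up to 0.0818. Eif2ak4 stood at 8.01 and 6.71 CPM (control), 6.82 and 18.4 (labelled KD), 22.5 and 21.6 (labelled Ccnb1) and 30.8 and 34.6 (CCE), where the labelled KD libraries disagreed. Eif2ak1 ranged from 83.7 to 122 CPM and Eif2ak2 from 33.8 to 41.4 CPM over the J1 libraries.

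eIF3 is the largest of the factors, a complex that holds the other factors on the small ribosomal subunit. Of its 14 member genes, by edgeR 5 fell (all tested genes, 17.9%), 0 rose (11.0%) and 9 did not pass in labelled KD against control. DESeq2 and an unadjusted p under 0.05 also gave 0 higher. With Ccnb1 labelled, against labelled KD, 5 rose (Eif3a, Eif3f, Eif3j2, Eif3l and Eif3m) and 3 fell (Eif3d, Eif3g and Eif3i). These were 35.7% and 21.4% of the group, where 22.8% and 16.0% of all tested genes rose and fell. In labelled Ccnb1 against control 3 rose (Eif3a, Eif3f and Eif3j2) and 5 fell (Eif3b, Eif3d, Eif3g, Eif3i and Eif3l). These were 21.4% and 35.7% of the group, where 9.35% and 10.5% of all tested genes rose and fell. Eif3a, the gene of the largest subunit, stood at 322 and 380.3 CPM (control), 318 and 276 (labelled KD), 921 and 887 (labelled Ccnb1) and 696 and 778 (CCE). Labelled Ccnb1 lay above all other libraries, and far above those of control and labelled KD. Eif3a had a log2 fold change of 1.69 (edgeR adjusted p = 0.00037, SE 0.11) in labelled Ccnb1 against labelled KD and 1.29 (edgeR adjusted p = 0.00177, SE 0.11) against control. Between labelled KD and control Eif3a stood at -0.40 (edgeR adjusted p = 0.0415, SE 0.11), a call that was lost whichever control or labelled Ccnb1 library was left out (edgeR adjusted p of up to 0.197), with size factors of another kind (RLE) and with the offset.

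Eif3d and Eif3g were lower in labelled Ccnb1. Eif3d encodes a subunit that in human cells can bind the cap of some mRNAs, and stood at 245 and 259.6 CPM (control), 254 and 277 (labelled KD), 149.5 and 137 (labelled Ccnb1) and 323 and 348 (CCE). Eif3g encodes an RNA-binding subunit and stood at 132 and 129.5 CPM (control), 154 and 138 (labelled KD), 76.8 and 80.4 (labelled Ccnb1) and 204 and 208 (CCE). For both, labelled Ccnb1 lay below every other library. Eif3d and Eif3g had log2 fold changes of -0.81 (edgeR adjusted p = 0.00229, SE 0.095) and -0.81 (edgeR adjusted p = 0.00319, SE 0.10) in labelled Ccnb1 against labelled KD. Against control these were -0.89 (edgeR adjusted p = 0.00336, SE 0.094) and -0.81 (edgeR adjusted p = 0.00596, SE 0.10). The calls against control were lost with 1 control or labelled Ccnb1 library left out, with edgeR adjusted p-values of up to 0.072 and 0.108, as was that of Eif3g against labelled KD without labelled Ccnb1 replicate 1 or 2, at up to 0.0621. With the offset, Eif3g against control was -0.22 (edgeR adjusted p = 0.241), no longer a call. Eif3i stood at 54.7 and 56.6 CPM (control), 67.1 and 79.2 (labelled KD), 37.5 and 37.3 (labelled Ccnb1) and 139.6 and 155 (CCE) and had the lowest J1 values in labelled Ccnb1 too, at -0.89 (edgeR adjusted p = 0.0109, SE 0.17) against labelled KD and -0.65 (edgeR adjusted p = 0.0456, SE 0.16) against control on the log2 scale. Its edgeR adjusted p reached 0.129 and 0.332 with 1 library left out, and the call against control was also lost with no filter on low counts and with the offset, at -0.60 (edgeR adjusted p = 0.0764).

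Eif3l, Eif3b and Eif3f had close replicates. Eif3l stood at 419 and 413 CPM (control), 274 and 276 (labelled KD), 357 and 363 (labelled Ccnb1) and 266 and 296 (CCE). The 3 J1 groups did not overlap, with control highest, labelled KD lowest and labelled Ccnb1 between them. Eif3l had a log2 fold change of -0.75 (edgeR adjusted p = 0.00111, SE 0.06) in labelled KD against control, 0.47 (edgeR adjusted p = 0.00307, SE 0.06) in labelled Ccnb1 against labelled KD and -0.28 (edgeR adjusted p = 0.0259, SE 0.059) in labelled Ccnb1 against control. The last was lost when a control or labelled Ccnb1 library was dropped (edgeR adjusted p of up to 0.304) and with the offset. Eif3b, the gene of a scaffold subunit, stood at 434 and 441 CPM (control), 408 and 380.1 (labelled KD) and 349 and 363 (labelled Ccnb1). It fell against control in labelled KD and in labelled Ccnb1, with log2 fold changes of -0.31 (edgeR adjusted p = 0.0208, SE 0.064) and -0.37 (edgeR adjusted p = 0.0143, SE 0.064). Leaving out 1 library took the edgeR adjusted p to 0.134 and 0.203, and the offset turned the second to 0.066 (edgeR adjusted p = 0.571). Against labelled KD, Eif3b in labelled Ccnb1 went from -0.065 (edgeR adjusted p = 0.48, SE 0.064) to 0.48 (edgeR adjusted p = 0.00368) with the offset. Eif3f stood at 186 and 190.3 CPM (control), 228 and 225 (labelled KD) and 296 and 295 (labelled Ccnb1) and rose in labelled Ccnb1 by 0.46 (edgeR adjusted p = 0.00494, SE 0.068) against labelled KD and 0.58 (edgeR adjusted p = 0.00465, SE 0.068) against control. Its edgeR adjusted p reached 0.0595 and 0.0846 with 1 library left out.

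Several eIF3 genes share reads with copies, so their own rows are uncertain. Eif3m, on chromosome 2, had no count in either labelled KD library and stood at 9.23 and 5.04 CPM (control), 7.66 and 9.06 (labelled Ccnb1) and 158 and 164 (CCE). The row fell below detection in labelled KD (edgeR adjusted p = 0.011 against control and 0.00748 against labelled Ccnb1), and with 1 library left out these reached 0.086 and 0.0712. A count of 0 over the group allowed 8.25 CPM once the spread between its libraries was counted in, above the 6.75 CPM of the pooled control and near the 8.40 CPM of pooled labelled Ccnb1, so no fold is given. The copy Gm7658, on chromosome 1, matches the Eif3m transcript at 98.6% over 514 bases. It held 95.4% and 97.4% (control), 100.0% and 100.0% (labelled KD), 96.6% and 96.0% (labelled Ccnb1) and 0.632% and 0.919% (CCE) of the reads of the pair. Gene and copy together stood at 202 and 190.4 CPM (control), 90.5 and 87.9 (labelled KD), 227 and 229 (labelled Ccnb1) and 159 and 166 (CCE). For the sum the log2 fold change was -1.29 (edgeR adjusted p = 0.000636, SE 0.082) in labelled KD against control, 1.43 (edgeR adjusted p = 0.000281, SE 0.082) in labelled Ccnb1 against labelled KD and 0.14 (edgeR adjusted p = 0.277, SE 0.078) in labelled Ccnb1 against control. The windows show the junction of exons 5 and 6 of Eif3m, where gene and copy differ by C11T and C13T, and that of exons 15 and 16 of Eif3c, on chromosome 7, where the copy Gm11224 on chromosome 4 differs by C12T, G24A, G44A and T48C.
Eif3m: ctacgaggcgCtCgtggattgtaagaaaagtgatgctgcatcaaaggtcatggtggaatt
Gm7658: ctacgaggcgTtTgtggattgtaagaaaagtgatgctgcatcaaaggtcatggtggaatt
Eif3c: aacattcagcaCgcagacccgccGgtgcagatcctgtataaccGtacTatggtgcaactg
Gm11224: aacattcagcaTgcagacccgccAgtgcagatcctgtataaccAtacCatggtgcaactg

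Of the Eif3c pair, the copy held 50.4% and 49.1% (control), 50.0% and 38.6% (labelled KD), 34.2% and 36.4% (labelled Ccnb1) and 0% and 0.0138% (CCE) of the reads. The gene row stood at 242 and 255 CPM (control), 248 and 329.8 (labelled KD), 381 and 353 (labelled Ccnb1) and 864 and 847 (CCE) and passed by edgeR in no comparison, while DESeq2 called it higher in labelled Ccnb1 against each other group. Gene and copy together stood at 487 to 580.1 CPM over the J1 libraries, and the sum did not pass either. Eif3e stood at 10.8 and 18.5 CPM (control), 7.73 and 8.06 (labelled KD), 14.8 and 17.8 (labelled Ccnb1) and 198 and 209 (CCE), and its copy Eif3s6-ps2 held 65.2% and 49.2% (control), 69.9% and 49.1% (labelled KD), 83.7% and 81.4% (labelled Ccnb1) and 0.168% and 0.186% (CCE) of the reads of the pair. Eif3s6-ps1, by its symbol a pseudogene of the same gene, was not among the matched copies and stayed out of the sum. It held 198 and 292 reads (control), 111 and 146 (labelled KD) and 103 and 95 (labelled Ccnb1), fewest in labelled Ccnb1. A sum that includes it was not fitted. With Eif3s6-ps2 alone added, the log2 fold change of Eif3e was 2.24 (edgeR adjusted p = 0.00237, SE 0.26) in labelled Ccnb1 against labelled KD and 1.40 (edgeR adjusted p = 0.0164, SE 0.25) in labelled Ccnb1 against control. Both are calls that the gene row alone did not give, and the second reached an edgeR adjusted p of up to 0.168 with 1 library left out.

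Eif3j1 and Eif3j2 encode the loosely held j subunit. Eif3j2 has 1 exon and matches the transcript of Eif3j1, which has 8, at 99.4% over 2379 bases. Eif3j2 stood at 101 and 98.3 CPM (control), 58.9 and 49.2 (labelled KD), 151 and 165 (labelled Ccnb1) and 17.0 and 20.0 (CCE), and Eif3j1 at 1.39 and 2.40 CPM (control), 0 and 3.34 (labelled KD), 3.75 and 4.83 (labelled Ccnb1) and 28.6 and 28.5 (CCE). Eif3j2 thus held 93.7% to 100% of the reads of the pair in the J1 libraries and 37.3% and 41.3% in CCE. Labelled KD was the lowest J1 group for Eif3j2 and labelled Ccnb1 the highest. Eif3j2 had a log2 fold change of -1.04 (edgeR adjusted p = 0.00438, SE 0.13) in labelled KD against control, 1.63 (edgeR adjusted p = 0.00075, SE 0.13) in labelled Ccnb1 against labelled KD and 0.59 (edgeR adjusted p = 0.0275, SE 0.13) in labelled Ccnb1 against control. Without control replicate 1 or 2 the first reached an edgeR adjusted p of up to 0.06, and with 1 control or labelled Ccnb1 library left out the last reached up to 0.269. With the offset the last was 0.39 (edgeR adjusted p = 0.113), no longer a call. The sum of both genes gave -1.02 (SE 0.12, edgeR adjusted p = 0.00338), 1.62 (SE 0.12, edgeR adjusted p = 0.000534) and 0.60 (SE 0.11, edgeR adjusted p = 0.0191) in the same order, with no fit that left out a library. Eif3h and Eif3k passed by edgeR in no comparison, while DESeq2 called Eif3h lower in labelled Ccnb1 against each other group. Eif3k held 100.0 and 32.8 CPM in labelled KD, where the libraries disagreed, and ranged from 32.3 to 55.04 CPM over control and labelled Ccnb1.

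In the eIF4F group, with 7 tested genes, 4 fell (all tested genes, 17.9%) and 1 rose (11.0%) in labelled KD against control. Between labelled Ccnb1 and labelled KD 5 rose (all tested genes, 22.8%) and 2 fell (16.0%), so all 7 passed. In labelled Ccnb1 against control Eif4g1 and Eif4g2 rose (all tested genes, 9.35%) and Eif4e2 fell (10.5%). Eif4e, the gene of the cap-binding protein, stood at 60.1 and 66.5 CPM (control), 25.2 and 30.6 (labelled KD), 42.6 and 45.3 (labelled Ccnb1) and 100.2 and 98.7 (CCE). The 3 J1 groups did not overlap, and labelled KD was the lowest. Eif4e had a log2 fold change of -1.34 (edgeR adjusted p = 0.00668, SE 0.19) in labelled KD against control and 0.74 (edgeR adjusted p = 0.0299, SE 0.19) in labelled Ccnb1 against labelled KD. Eif4e in labelled Ccnb1 against control gave -0.60 (edgeR adjusted p = 0.0769, SE 0.19). The first was lost without control replicate 1 or 2 (edgeR adjusted p of up to 0.0835) and the second without 1 control or labelled Ccnb1 library (up to 0.19). With the offset the second was 0.12 (edgeR adjusted p = 0.684) and the third -1.16 (edgeR adjusted p = 0.0167).

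The copy Gm7327, on chromosome X, matches the transcript of Eif4e, on chromosome 3, at 98.6% over 654 bases. Of the reads of the pair, the copy held 52.9% and 49.2% (control), 0% and 28.6% (labelled KD), 71.5% and 72.9% (labelled Ccnb1) and 0.0832% and 0.158% (CCE). Gene and copy together stood at 128 and 131 CPM (control), 25.2 and 42.8 (labelled KD), 149 and 168 (labelled Ccnb1) and 100.3 and 98.9 (CCE). The sum changed by -2.09 (edgeR adjusted p = 0.00387, SE 0.25) in labelled KD against control and by 2.31 (edgeR adjusted p = 0.00186, SE 0.25) in labelled Ccnb1 against labelled KD on the log2 scale, and gave 0.22 (edgeR adjusted p = 0.581, SE 0.23) in labelled Ccnb1 against control. The first of these reached an edgeR adjusted p of up to 0.0591 without control replicate 1 or 2. At the junction of exons 5 and 6 the pair differs by T27A, C33T and G36T. Eif4b, on chromosome 15, and its copy Gm4784, on chromosome X, differ by A1G, G7A and G13T at the junction of exons 7 and 8, in the windows shown for these genes.
Eif4e: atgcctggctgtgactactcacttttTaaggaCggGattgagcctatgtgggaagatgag
Gm7327: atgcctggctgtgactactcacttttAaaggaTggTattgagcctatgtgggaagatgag
Eif4b: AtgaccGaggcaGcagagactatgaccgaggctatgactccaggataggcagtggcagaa
Gm4784: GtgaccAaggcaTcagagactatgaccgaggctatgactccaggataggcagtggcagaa

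Eif4b and Eif4h encode partners that stimulate the helicase eIF4A. Eif4b stood at 846 and 860.0 CPM (control), 622 and 556 (labelled KD), 1088 and 1020.2 (labelled Ccnb1) and 751 and 661 (CCE). Eif4h stood at 681 and 620.1 CPM (control), 443 and 364 (labelled KD), 586 and 582 (labelled Ccnb1) and 489 and 496 (CCE). For both genes the labelled KD libraries were the lowest of the J1 libraries. Eif4b and Eif4h had log2 fold changes of -0.69 (edgeR adjusted p = 0.00205, SE 0.067) and -0.84 (edgeR adjusted p = 0.00369, SE 0.10) in labelled KD against control. Labelled Ccnb1 against labelled KD gave 0.92 (edgeR adjusted p = 0.000527, SE 0.067) for Eif4b and 0.61 (edgeR adjusted p = 0.00696, SE 0.10) for Eif4h. The call of Eif4h against control was lost without control replicate 1, with an edgeR adjusted p of 0.0551, and that of labelled Ccnb1 against labelled KD without labelled Ccnb1 replicate 1 or 2, at up to 0.0511. Neither passed in labelled Ccnb1 against control, at 0.23 (edgeR adjusted p = 0.0635, SE 0.066) for Eif4b and -0.23 (edgeR adjusted p = 0.171, SE 0.099) for Eif4h. The copy of Eif4b held 12.5% and 12.5% (control), 17.3% and 18.7% (labelled KD), 23.6% and 23.4% (labelled Ccnb1) and 0% and 0% (CCE) of the reads of that pair, and with it added the value in labelled Ccnb1 against control became 0.42 (edgeR adjusted p = 0.00802, SE 0.061), reaching an edgeR adjusted p of up to 0.102 with 1 library left out.

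The 3 genes of eIF4G scaffolds went different ways. Eif4g1, the main scaffold, stood at 477 and 506 CPM (control), 519 and 537 (labelled KD), 695 in both (labelled Ccnb1) and 979 and 1005 (CCE). Eif4g2, whose protein lacks the site for eIF4E, stood at 927 and 874 CPM (control), 674 and 819.9 (labelled KD), 1311 and 1279 (labelled Ccnb1) and 1851 and 1879 (CCE). Eif4g3, a second full-length scaffold, stood at 99.1 and 90.5 CPM (control), 206 and 195 (labelled KD), 78.9 and 70.2 (labelled Ccnb1) and 65.1 and 91.9 (CCE). For Eif4g1 and Eif4g2 the labelled Ccnb1 libraries were the highest of J1, and for Eif4g3 the labelled KD libraries were the highest of all 8. On the log2 scale, labelled KD against control gave 0.93 (edgeR adjusted p = 0.00384, SE 0.11) for Eif4g3, -0.42 (edgeR adjusted p = 0.0306, SE 0.10) for Eif4g2 and -0.053 (edgeR adjusted p = 0.571, SE 0.061) for Eif4g1. Labelled Ccnb1 against labelled KD gave -1.35 (edgeR adjusted p = 0.000815, SE 0.11) for Eif4g3, 0.87 (edgeR adjusted p = 0.00232, SE 0.10) for Eif4g2 and 0.48 (edgeR adjusted p = 0.00306, SE 0.061) for Eif4g1. Against control, labelled Ccnb1 stood at 0.42 (edgeR adjusted p = 0.00801, SE 0.06) for Eif4g1, 0.45 (edgeR adjusted p = 0.0321, SE 0.10) for Eif4g2 and -0.42 (edgeR adjusted p = 0.0513, SE 0.11) for Eif4g3. Without control replicate 1 or 2, the rise of Eif4g3 in labelled KD reached an edgeR adjusted p of up to 0.0695. With 1 control or labelled Ccnb1 library left out, Eif4g2 reached up to 0.177 in labelled KD against control and 0.233 in labelled Ccnb1 against control, and Eif4g1 up to 0.103 there. With the offset, Eif4g2 in labelled Ccnb1 against control turned to -0.28 (edgeR adjusted p = 0.155), and its call against labelled KD ended, at 0.32 (edgeR adjusted p = 0.0592). The offset also made calls of Eif4g1 in labelled KD against control, at -0.29 (edgeR adjusted p = 0.0222), and of Eif4g3 in labelled Ccnb1 against control, at -0.83 (edgeR adjusted p = 0.0128).

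Eif4e2 encodes a relative of eIF4E that binds caps without starting translation. It stood at 251 and 250.2 CPM (control), 283 and 255 (labelled KD), 142 and 146 (labelled Ccnb1) and 154 and 177 (CCE). Labelled Ccnb1 was below both other J1 groups, which lay close together. Eif4e2 had a log2 fold change of -0.82 (edgeR adjusted p = 0.00133, SE 0.081) in labelled Ccnb1 against labelled KD and -0.87 (edgeR adjusted p = 0.00233, SE 0.08) against control, the latter reaching an edgeR adjusted p of up to 0.0595 with 1 control or labelled Ccnb1 library left out.

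The eIF4E-binding proteins hold eIF4E away from eIF4G until mTOR phosphorylates them. Their genes Eif4ebp1 and Eif4ebp2 lay on opposite sides in labelled Ccnb1. Eif4ebp2 stood at 87.1 and 75.2 CPM (control), 20.0 and 20.3 (labelled KD), 273 and 277 (labelled Ccnb1) and 142 and 133 (CCE). Labelled KD was lowest and labelled Ccnb1 highest of all libraries, with wide gaps between the groups and close replicates. Eif4ebp2 had a log2 fold change of -2.16 (edgeR adjusted p = 0.000533, SE 0.12) in labelled KD against control, 3.85 (edgeR adjusted p = 0.000111, SE 0.13) in labelled Ccnb1 against labelled KD and 1.69 (edgeR adjusted p = 0.000969, SE 0.11) in labelled Ccnb1 against control. Eif4ebp1 stood at 588 and 562 CPM (control), 520.2 and 445 (labelled KD), 179.7 and 193 (labelled Ccnb1) and 340.3 and 325 (CCE). Here control was highest and labelled Ccnb1 lowest. Eif4ebp1 had a log2 fold change of -0.41 (edgeR adjusted p = 0.0234, SE 0.089) in labelled KD against control, -1.29 (edgeR adjusted p = 0.000478, SE 0.091) in labelled Ccnb1 against labelled KD and -1.70 (edgeR adjusted p = 0.000648, SE 0.092) in labelled Ccnb1 against control. The first of these was lost whichever control or labelled Ccnb1 library was left out (edgeR adjusted p of up to 0.152) and with the offset, at -0.30 (edgeR adjusted p = 0.0553). With the offset Eif4ebp2 gave -2.37 (edgeR adjusted p = 0.000496), 3.85 (edgeR adjusted p = 0.000134) and 1.48 (edgeR adjusted p = 0.00231) in the same order.

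Eif4ebp3, the third gene of this kind, stood at 2.44 and 2.16 CPM (control), 0 in both (labelled KD) and 0.852 and 1.21 (labelled Ccnb1). It passed the test against labelled KD from both sides (edgeR adjusted p = 0.03 for control and 0.0398 for labelled Ccnb1), with up to 0.233 and 0.327 when 1 library was left out, and all its levels lay under the 8.25 CPM that a 0 over labelled KD allowed, so no fold is given. Eif4enif1 encodes a protein that carries eIF4E into the nucleus and into mRNA granules. It stood at 114 and 111 CPM (control), 161 and 115 (labelled KD) and 128 and 121 (labelled Ccnb1) and passed the test in no comparison.

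Of the 5 genes for subunit joining and later steps, Eif5a and Eif5a2 fell in labelled KD against control. Eif5a, whose hypusine-bearing product helps the ribosome through difficult stretches, had the highest level per length of all members. It stood at 1729 and 1717 CPM (control), 823 and 678 (labelled KD), 833 and 798 (labelled Ccnb1) and 959 and 1030.3 (CCE). Control lay far above all other libraries, and the labelled KD and labelled Ccnb1 ranges overlapped. Eif5a had a log2 fold change of -1.35 (edgeR adjusted p = 0.000691, SE 0.089) in labelled KD and -1.15 (edgeR adjusted p = 0.00142, SE 0.089) in labelled Ccnb1, both against control. Eif5a between labelled Ccnb1 and labelled KD gave 0.20 (edgeR adjusted p = 0.129, SE 0.088), and 0.64 (edgeR adjusted p = 0.00497) with the offset. The copies Eif5al3-ps, on chromosome 5, and Gm14016, on chromosome 2, together held 10.2% and 10.1% (control), 5.29% and 6.37% (labelled KD), 21.3% and 21.4% (labelled Ccnb1) and 0.0435% and 0.0417% (CCE) of the reads of the gene and its copies. With them added the values were -1.42 (edgeR adjusted p = 0.000533, SE 0.084) in labelled KD against control, 0.46 (edgeR adjusted p = 0.00964, SE 0.083) in labelled Ccnb1 against labelled KD and -0.96 (edgeR adjusted p = 0.00194, SE 0.083) in labelled Ccnb1 against control. The second of these reached an edgeR adjusted p of 0.0615 without labelled Ccnb1 replicate 1, and the last up to 0.0546 without control replicate 1 or 2. The windows cover the junction of exons 4 and 5 of Eif5a, on chromosome 11, where Eif5al3-ps differs by C16A, G22A, A34G and G46A and Gm14016 by C12A, C16A, C43T and A44G. Eif5a is printed once per pair, since its capitals mark the bases that differ from that copy.
Eif5a: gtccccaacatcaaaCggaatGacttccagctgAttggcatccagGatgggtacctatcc
Eif5al3-ps: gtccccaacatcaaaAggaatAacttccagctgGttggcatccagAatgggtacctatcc
Eif5a: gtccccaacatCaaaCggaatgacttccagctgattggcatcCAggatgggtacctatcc
Gm14016: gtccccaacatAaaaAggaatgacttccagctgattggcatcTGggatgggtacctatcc

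Eif5a2, a second eIF5A gene, was low in control and changed in every J1 comparison. It stood at 9.06 and 9.71 CPM (control), 4.09 and 2.50 (labelled KD), 37.3 and 29.0 (labelled Ccnb1) and 20.4 and 22.6 (CCE). Labelled KD was lowest and labelled Ccnb1 highest of all libraries. Eif5a2 had a log2 fold change of -1.65 (edgeR adjusted p = 0.0313, SE 0.40) in labelled KD against control, 3.39 (edgeR adjusted p = 0.00263, SE 0.41) in labelled Ccnb1 against labelled KD and 1.74 (edgeR adjusted p = 0.0277, SE 0.37) in labelled Ccnb1 against control. With 1 control or labelled Ccnb1 library left out, the first and the last reached edgeR adjusted p-values of up to 0.162 and 0.327, and the second reached 0.0503 without labelled Ccnb1 replicate 1. The offset ended the last call, at 1.12 (edgeR adjusted p = 0.117).

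Eif5 encodes the protein that makes eIF2 hydrolyse its GTP at the start codon. It stood at 261 and 252 CPM (control), 248 and 338 (labelled KD), 380.3 and 408 (labelled Ccnb1) and 598 and 569.6 (CCE). Labelled Ccnb1 was the highest J1 group, and the labelled KD libraries disagreed. Its log2 fold change was 0.035 (edgeR adjusted p = 0.895, SE 0.15) in labelled KD against control, 0.51 (edgeR adjusted p = 0.0475, SE 0.15) in labelled Ccnb1 against labelled KD and 0.54 (edgeR adjusted p = 0.0613, SE 0.15) in labelled Ccnb1 against control. The second was lost when a control or labelled Ccnb1 library was dropped (edgeR adjusted p of up to 0.209) and turned to -0.013 (edgeR adjusted p = 0.957) with the offset. Without labelled KD replicate 2, the value in labelled KD against control was -0.24 (edgeR adjusted p = 0.00217).

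Eif6 encodes a factor that binds the large subunit and keeps the subunits apart. It stood at 252 and 238 CPM (control), 245 and 205 (labelled KD), 147 and 151 (labelled Ccnb1) and 236 and 251 (CCE). Labelled Ccnb1 was below all other libraries. Eif6 had a log2 fold change of -0.51 (edgeR adjusted p = 0.014, SE 0.10) in labelled Ccnb1 against labelled KD and -0.79 (edgeR adjusted p = 0.00611, SE 0.10) against control, while in labelled KD against control it was -0.28 (edgeR adjusted p = 0.0963, SE 0.10). With 1 control or labelled Ccnb1 library left out the edgeR adjusted p reached 0.156 and 0.0987, and with the offset the values were 0.11 (edgeR adjusted p = 0.443) and -0.17 (edgeR adjusted p = 0.321). Eif5b, whose protein joins the subunits, stood at 470.0 and 489.9 CPM (control), 1079.5 and 194 (labelled KD), 250.3 and 257 (labelled Ccnb1) and 318 and 308 (CCE). Its labelled KD libraries lay on either side of control, and it passed the test in no comparison.

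**Figure D3:**
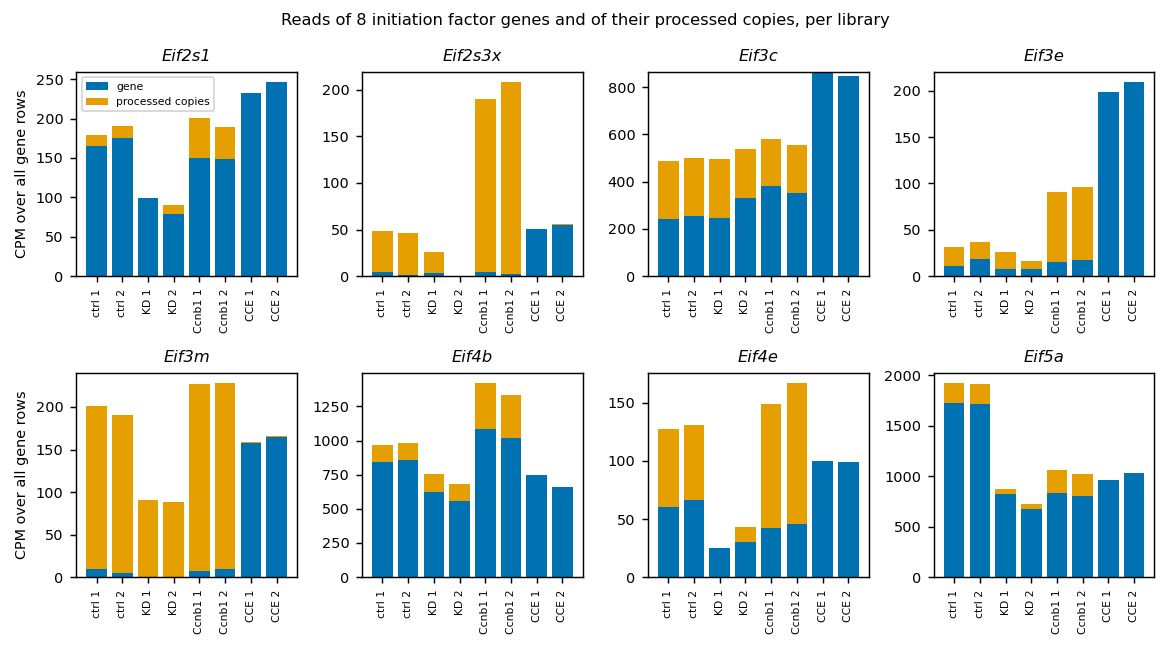
Reads of 8 members and of their processed copies in each library, in CPM over all gene rows, with blue for the gene row and orange for the copies; KD stands for labelled KD and Ccnb1 for labelled Ccnb1. Copies hold from 0.23% to 99.1% of the reads depending on gene and library in the J1 bars that have reads, apart from Eif3m in labelled KD (100%) and Eif4e in labelled KD replicate 1 (0%), and at most 1.83% in the CCE bars.

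Transcript length and GC content went along with the fold changes of all genes, so the members' values were set beside them. Members had a median transcript length of 3405 bases and a GC content of 49.8%, against 3181 bases and 50.1% over all tested genes. In labelled Ccnb1 against control, all tested genes under 2354 bases had a median log2 fold change of -0.35, and those over 4116 bases a median of 0.49. The 15 members under 2354 bases had a median of -0.72, the 19 of middle length -0.11 and the 15 longest 0.42. With an offset fitted for length and GC content in each library, the medians of all tested genes were 0.027, 0.11 and 0.15 in the same order, and those of the members -0.22, -0.0070 and -0.28. The members' medians by length in labelled Ccnb1 against labelled KD were -0.51, 0.43 and 0.89, and -0.28, 0.34 and 0.47 with the offset. For labelled KD against control they were -0.31, -0.31 and -0.40, and -0.25, -0.23 and -0.36 with it. The offset kept 17 of the 20 calls in labelled KD against control, 20 of the 30 in labelled Ccnb1 against labelled KD and 11 of the 20 in labelled Ccnb1 against control. It added 1 call (Eif4g1), 4 calls (Eif2b4, Eif2s2, Eif3b and Eif5a) and 2 calls (Eif4e and Eif4g3) in the same order. Among calls it kept, it moved the log2 fold change by more than 1.5 times for Eif4g3 in labelled KD against control, from 0.93 to 0.57. In labelled Ccnb1 against labelled KD it did so for Eif3g, from -0.81 to -0.37, and Eif4h, from 0.61 to 1.17. Against control it did so for Eif2s2, described with eIF2, for Eif3a, from 1.29 to 0.84, and for Eif5a, from -1.15 to -0.65.

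**Figure D4:**
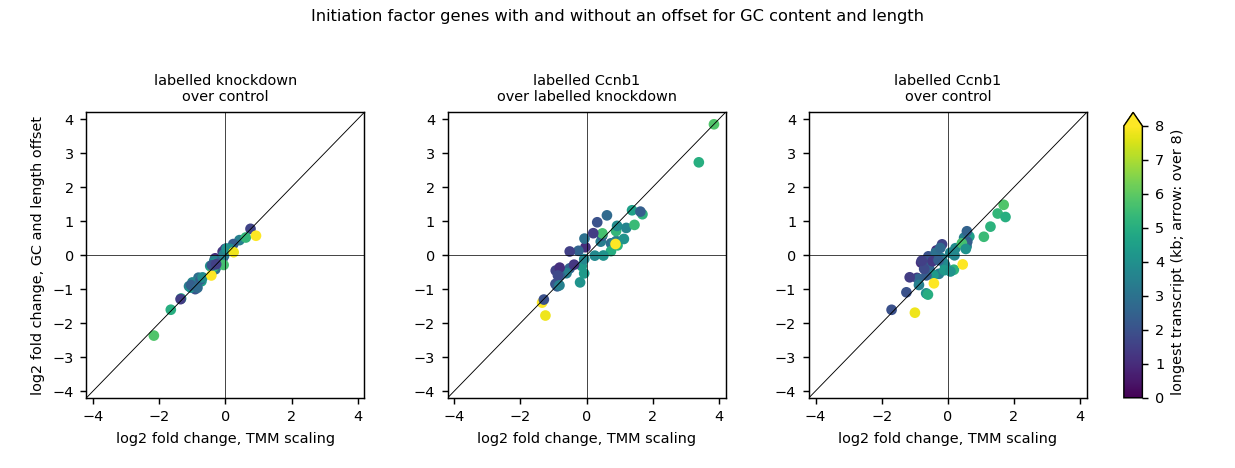
Log2 fold change of each tested member with a count in every group, with TMM scaling alone (x axis) and with the GC content and length offset (y axis), in the 3 J1 comparisons; colour gives the longest transcript in kilobases and the line marks equal values. In labelled KD over control the points lie along the line, and in both comparisons of labelled Ccnb1 the dark points of short transcripts lie mostly above it, such as Eif6, which moved from -0.51 to 0.11 against labelled KD.

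Levels per length of transcript are given for gene rows alone. In J1 these leave out reads on copies, such as the 95.4% and 97.4% of the Eif3m pair in control. For members with such copies they do not measure the transcript. In CPM per kilobase, Eif5a was the highest member in every group, at 1199 in control, 522 in labelled KD, 568 in labelled Ccnb1 and 692 in CCE. In control it was followed by Eif1 at 304, Eif4ebp1 at 288, Eif4h at 239 and Eif4b at 221. In labelled Ccnb1 the next were Eif4b at 274, Eif4h at 214 and Eif5 at 200.1 CPM per kilobase. In CCE they were Eif1 at 374, Eif3k at 372 and Eif5 at 296. In gene rows alone, members with higher CPM in both CCE libraries than in any J1 library included Eif3k, Eif3e, Eif3m and Eif2s3x. Eif3j2 and Eif2ak2 were lower there. With its copy added, Eif3m stood at 159 and 166 CPM in CCE, below control (202 and 190.4) and labelled Ccnb1 (227 and 229). Only labelled KD was lower, at 90.5 and 87.9 CPM. Eif2s3x with its copy stood at 50.6 and 55.4 CPM in CCE, below labelled Ccnb1 (190 and 209). Control (48.25 and 46.0) and labelled KD (26.1 and 0) were lower. Eif3e with its copy was still highest in CCE, at 199 and 210 CPM. These levels between lines are given side by side only.

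Other genes of the pathway were counted in 3 lists. Over all tested genes the shares called higher and lower were 11.0% and 17.9% in labelled KD against control, 22.8% and 16.0% in labelled Ccnb1 against labelled KD, and 9.35% and 10.5% in labelled Ccnb1 against control. Of 17 genes of stress and mTOR control of initiation, 8 rose and 2 fell in labelled KD against control, 1 rose and 7 fell in labelled Ccnb1 against labelled KD, and 2 rose and 4 fell in labelled Ccnb1 against control. The median log2 fold changes were 0.39, -0.17 and 0.018. The genes named from these lists were chosen after their values were seen. Of the stress list, those given with fold changes were all higher in labelled KD and lower in labelled Ccnb1 than there. Not all listed genes did this. Ddit4 stood at 25.8 and 21.9 CPM (control), 68.7 and 104 (labelled KD) and 120.2 and 131 (labelled Ccnb1). Ppp1r15a stood at 74.4 and 71.0 CPM (control), 136 and 152 (labelled KD) and 119 and 118 (labelled Ccnb1), still above control. Ddit3, the gene of CHOP, which acts after phosphorylation of eIF2, stood at 12.9 and 19.1 CPM (control), 684 and 491 (labelled KD), 32.5 and 29.0 (labelled Ccnb1) and 249 and 159.6 (CCE). Both labelled KD libraries were far above all others of J1. Its log2 fold change was 5.02 (edgeR adjusted p = 0.000426, SE 0.26) in labelled KD against control and -4.17 (edgeR adjusted p = 0.000285, SE 0.24) in labelled Ccnb1 against labelled KD. Atf4, the transcription factor gene whose translation rises when eIF2 is phosphorylated, stood at 731 and 756 CPM (control), 1127 and 1038 (labelled KD), 408 and 383 (labelled Ccnb1) and 704 and 592 (CCE), with a log2 fold change of 0.39 (edgeR adjusted p = 0.00957, SE 0.062) in labelled KD against control and -1.37 (edgeR adjusted p = 0.000183, SE 0.064) in labelled Ccnb1 against labelled KD. With the offset the latter was -0.81, and the former reached an edgeR adjusted p of up to 0.123 without control replicate 1 or 2. Rps6kb2, a gene for a ribosomal protein kinase under mTOR, stood at 40.4 and 34.7 CPM (control), 119.8 and 122 (labelled KD), 16.0 and 17.97 (labelled Ccnb1) and 28.2 and 21.3 (CCE). It rose by 1.53 (edgeR adjusted p = 0.00275, SE 0.16) in labelled KD against control and changed by -2.75 (edgeR adjusted p = 0.000355, SE 0.17) in labelled Ccnb1 against labelled KD, on the log2 scale. The rise reached an edgeR adjusted p of 0.0553 without control replicate 2.

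Of 12 partners of initiation, 8 fell (all tested genes, 17.9%) and 0 rose by edgeR in labelled KD against control, 9 rose (all tested genes, 22.8%) and 0 fell in labelled Ccnb1 against labelled KD, and 2 rose and 1 fell in labelled Ccnb1 against control. Each count of 0 in these lists was also 0 at an unadjusted p under 0.05 and by DESeq2. Their median log2 fold changes were -0.96, 1.01 and 0.021. Ddx3x, a helicase gene of scanning, stood at 449 and 465 CPM (control), 227 and 240.5 (labelled KD), 677 and 668 (labelled Ccnb1) and 660.4 and 693 (CCE). Abce1, the gene of a protein that splits ribosomes for another round, stood at 447 and 441 CPM (control), 203 and 172 (labelled KD), 414 and 383 (labelled Ccnb1) and 158 and 187 (CCE). In both cases labelled KD was the lowest J1 group. Labelled KD against control gave -1.12 (edgeR adjusted p = 0.000533, SE 0.066) for Ddx3x and -1.40 (edgeR adjusted p = 0.000723, SE 0.094) for Abce1 on the log2 scale. Mcts1, whose protein acts at re-initiation, stood at 10.3 and 9.83 CPM (control), 0 in both (labelled KD) and 8.17 and 9.36 (labelled Ccnb1). Its fall in labelled KD was lost without control replicate 1 or 2, and its rise in labelled Ccnb1 without labelled Ccnb1 replicate 2. These levels lie near the 8.25 CPM that a 0 over labelled KD allowed, so no fold is given. Of 9 genes of elongation and release, 7 fell (all tested genes, 17.9%) and 0 rose in labelled KD against control, 5 rose and 2 fell (all tested genes, 22.8% and 16.0%) in labelled Ccnb1 against labelled KD, and 2 rose and 3 fell in labelled Ccnb1 against control, with medians of -0.58, 0.62 and -0.22. Etf1, the gene of the release factor eRF1, stood at 695 and 671 CPM (control), 274 and 356 (labelled KD), 587 and 575 (labelled Ccnb1) and 510.2 and 538 (CCE), with a log2 fold change of -1.27 (edgeR adjusted p = 0.00241, SE 0.13) in labelled KD against control.

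Promoters were read for the 40 members that the RefSeq table on GRCm38.p6 holds, as 53 windows from 250 bases before to 50 after a start. The letters CACGTG, an E-box, which MYC and MITF family proteins are known to bind and which reads alike on both strands, stood in 20.75% of the 53 windows and in 7.15% of all 32851 windows of that length. The members with it were Eif1b, Eif3a, Eif3f, Eif3k, Eif4e, Eif4g1, Eif4h, Eif5a and Eif5a2. Windows of 1 gene overlap in part, and a match is a description of letters. The letters TGACGTCA, a cAMP response element, stood in 0% and 1.79%, and TGATGNAA, a site of CHOP with ATF4, searched on both strands, in 1.89% (Eif2s3x) and 3.97%. Of the members with an E-box, Eif1b, Eif3f, Eif3k and Eif4g1 were not called in labelled KD against control, and no link to the letters was tested. Eif3a fell there, but its E-box lies after the start and is not shown. Stretches of 60 bases with the E-box in capitals are shown for 4 members that fell in labelled KD against control, each 5′ to 3′ on the gene's strand. They are chr3:138527177-138527236 on the plus strand for Eif4e, chr5:134639473-134639532 on the minus strand for Eif4h, chr11:69921428-69921487 on the minus strand for Eif5a, and chr3:28781133-28781192 on the plus strand for Eif5a2, which holds it at 2 places.
Eif4e: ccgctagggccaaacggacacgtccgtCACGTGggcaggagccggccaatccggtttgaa
Eif4h: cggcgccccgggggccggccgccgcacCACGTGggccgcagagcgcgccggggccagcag
Eif5a: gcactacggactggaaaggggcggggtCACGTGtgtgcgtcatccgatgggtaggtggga
Eif5a2: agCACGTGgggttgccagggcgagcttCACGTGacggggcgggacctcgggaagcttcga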

How the data were processed

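The members, roles and pathway lists were chosen with earlier results of these data known. The 8 poly-A libraries were sequenced as 100 bp (single-end) or 150 bp (paired-end) reads, not assigned to libraries in the labels. The authors deposited 1 table of raw counts a library, in whole reads by Ensembl ID. The submitters' processing notes list mm9 as build and, without roles or settings, HTSeq 0.11.2, Bowtie2 2.3.4.3, edgeR 3.26.8 and SAMtools 1.9, and strand handling is not given in the sources used here. The 5 summary rows of each file name no gene and stayed out of library sizes and tests. Of all reads they held, in J1 libraries, 15.7% to 45.2% unaligned, 20.6% to 33.7% of low alignment quality and 11.9% to 13.9% outside genes, and in CCE libraries 0%, 0% and 48.5% to 49.5%, with 9.71% and 10.0% not unique. Ambiguous reads made up 0.328% to 0.594%. Symbols matched 32620 of 37310 gene IDs.

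Levels are CPM over all gene rows, n = 2 libraries a group. The main test was the two-sided quasi-likelihood test of edgeR 4.0.16 (R 4.3.3) with TMM scaling and filterByExpr, in 1 fit over the 6 J1 libraries, with Benjamini-Hochberg adjustment over 14462 genes and a threshold of 0.05. The SE is approximate: the size of the log2 fold change divided by the root of F. The fit was also run on simulated counts with 1 spread for all groups, unlike these libraries, and nothing is concluded from that run. The 14 alternatives were RLE size factors, no filter, DESeq2 1.42.0, only the groups compared, each of 6 libraries left out, a replicate block, an offset for GC content and length (splines with 5 degrees of freedom each), both of these, and copies added to their genes. Summing Eif3j1 and Eif3j2, leaving out each library with copies added, and the floor for folds against a group at 0 (3 counts times the spread over Poisson noise, 66 counts over labelled KD), were chosen after seeing the data. Only processed pseudogenes among the matches served as copies, so the protein-coding gene Emd, a match of Eif1, was not added. Matches were GENCODE M21 transcripts that BLAST 2.17.0 aligned for 300 bases or more, with an identity of 90% or more. That annotation and the RefSeq promoters use GRCm38, another build than the files, and served by gene ID and symbol only. Lengths and GC content were known for 97.3% of tested genes and 100% of tested members. A count of 0 allows 0.360 to 0.834 CPM in a J1 library and 0.117 and 0.125 CPM in CCE (3 counts). These floors cover counting error only. Replicate numbers did not pair the libraries: the correlations of same-numbered deviations from the group means were -0.0020, -0.030 and 0.027.

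The text names 11 anchor genes and, in each comparison, up to 3 members a role with the largest change among those called, with a mean of at least 5 CPM and no overlap of the groups, 30 genes in all. Other members named with values, among them Eif1ad, Eif2b2, Eif2ak4, Eif3b, Eif3c, Eif3e, Eif3f, Eif3i, Eif3k, Eif4ebp3 and Eif5b, were chosen after their values were seen.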

Additional observations from a re-analysis of the deposited data

Results flagged for a closer look

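Signal was present in genes that the choice of members left out as pseudogenes. Eif5al3-ps, a copy of Eif5a, reached 213.73 CPM over the J1 libraries, with a lowest value of 40.0 CPM there and 0.376 and 0.430 CPM in CCE. Eif3s6-ps2, a copy of Eif3e, reached 78.1 CPM in J1, with a lowest value of 7.79 CPM, and stood at 0.334 and 0.391 CPM in CCE. Eif3s6-ps1, by its symbol of the same gene but not added to Eif3e, reached 40.6 CPM in J1, with a lowest value of 14.3 CPM. It had no count in CCE. Eif1-ps1 reached 2.96 CPM in J1, with a lowest value of 0.604 CPM, and stood at 0.125 and 0.156 CPM in CCE.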

How the results depend on the processing

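Counts of calls are given as all genes, then members. In labelled KD against control (4184 and 20 calls), only the groups compared gave 1760 and 9, the replicate block 2631 and 13, the offset for GC content and length with the block 2520 and 13, and leaving out 1 library 701 to 10225 and 5 to 35. In labelled Ccnb1 against labelled KD (5616 and 30), the offset with the block gave 3596 genes, and leaving out 1 library 1674 to 11078 and 12 to 40. For labelled Ccnb1 against control (2865 and 20), DESeq2 gave 4598 and 31, only the groups compared 8658 and 39, the offset 1849 and 13, the offset with the block 983 and 11, and leaving out 1 library 254 to 8806 and 4 to 36. Without replicate 1 or 2 of labelled KD the counts were the highest of the leave-one-out fits. Apart from these cases the counts stayed within 1.5 times under RLE size factors, no filter, DESeq2, added copies and the block. As the replicate numbers share only a number, calls lost under the block are not read as weaker effects.

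Values of the 49 tested members that passed with or without an alternative changed sign as follows. With 1 library left out, labelled KD against control ranged from -0.19 to 0.23 for Eif3c, -0.89 to 0.71 for Eif3k, -0.24 to 0.22 for Eif5 and -1.48 to 0.98 for Eif5b, and labelled Ccnb1 against labelled KD from -0.45 to 0.73 for Eif1b and -1.95 to 0.51 for Eif5b. With the offset, labelled Ccnb1 against labelled KD gave 0.48 for Eif3b, -0.013 for Eif5 and 0.11 for Eif6, and with the block 0.48, -0.0051 and 0.11. Against control, labelled Ccnb1 gave 0.066 for Eif3b and -0.28 for Eif4g2 with the offset, the same with the block, and -0.017 and -0.016 for the partner gene Ddx3x. Values that passed in neither fit changed sign 28 times with the offset (14 members), 36 times with 1 library left out (19 members) and 13 times under other settings (8 members). The cause was not tested. Counts of 0 in labelled KD limit what the depth can say of Eif3m and Eif4ebp3.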
